A study of Mus musculus with 20 samples.

Results

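The enzymes that oxidise fatty acids and run the citric acid cycle were followed in mouse kidney under a low phosphate diet. Of 33 genes chosen for these pathways, 31 had at least 1 probe set (a group of short oligonucleotides on the array) that the platform annotation assigns to that gene alone, out of 8252 such genes in all. Acat1 and Acsl1 were not analysed here. The 31 genes held 43 probe sets, 22 of them for 17 genes of fatty acid oxidation and 21 for 14 genes of the citric acid cycle and of pyruvate entry into it. An intensity filter left 34 probe sets of 29 genes for testing, 19 for 16 genes of fatty acid oxidation and 15 for 13 genes of the citric acid cycle. The other 9 probe sets were dim or belonged to the array's controls. Both probe sets of Acadvl, the very long chain acyl-CoA dehydrogenase, stayed between 2.8 and 90.9 on the 20 arrays, and that of Idh3b, a subunit of the NAD-linked isocitrate dehydrogenase, between 11.7 and 93.2, so neither gene was tested.

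Kidney RNA came from normal mice and from Hyp mice, both labelled C57BL/6J, fed a control or a low phosphate diet for 3 or 5 days. Hyp is a mouse model of X-linked hypophosphatemia, in which loss of Phex function leads to phosphate loss in the urine, and whether the females were heterozygous and how old the mice were is not given in the labels. Each array measured RNA pooled from 3 mice. Each of the 4 groups had 5 arrays, 2 at 3 days (1 male, 1 female) and 3 at 5 days (2 male, 1 female), and the design asks how diet acts in each genotype and how the genotypes differ on each diet. Values are deposited intensities on a linear scale. Differences are on the scale of log2(intensity + 38), which understates the fold change of dim genes, and are given with the standard error (SE) of a limma fit to all 20 arrays. A probe set passed when its p-value, adjusted by Benjamini and Hochberg's method over all 8695 probe sets tested, was under 0.05. The number of arrays limits the precision, and the p-values measure the spread left between pools after the sex term. At 3 days a group has 1 pool of each sex. With 2 arrays per group there, a lack of overlap carries little weight, above all for genes named for their largest difference. At 5 days its 2 male pools are on arrays of different sets (described below), so set differences enter that spread.

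Fatty acids are first bound to coenzyme A and carried into mitochondria by the carnitine shuttle. Each turn of beta oxidation then uses an acyl-CoA dehydrogenase, a hydratase, a hydroxyacyl-CoA dehydrogenase and a thiolase, and releases acetyl-CoA. Auxiliary enzymes shift or reduce the double bonds of unsaturated chains, and the electron transfer flavoprotein passes electrons from the dehydrogenases to the respiratory chain. Acetyl-CoA enters the citric acid cycle through citrate synthase, while pyruvate reaches the cycle through pyruvate dehydrogenase or pyruvate carboxylase. The proximal tubule, where most filtered phosphate is reabsorbed, relies on fatty acids as fuel, and many oxidation genes are targets of the nuclear receptor PPAR alpha.

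The arrays fall into 6 sets by title number, sex and duration: 01 to 04 (male, 5 days), 05 to 08 (female, 5 days), 09 and 10 (Hyp males, 5 days), 11 to 14 (male, 3 days), 15 to 18 (female, 3 days), and 19 and 20 (normal males, 5 days). Arrays 05 to 08 stood apart, whose median Spearman rho against the rest was 0.895 to 0.934 and whose actin 3′ to 5′ ratios, which rise as RNA degrades, ran from 1.74 to 2.61, against 0.943 to 0.969 and 1.22 to 1.98 on the other 16. As a description of the labelled tissue, the summed intensity of 18 proximal tubule marker genes ran from 93368 to 128046 over the 20 arrays. That of 10 muscle genes ran from 592 to 2275, and since levels of different probe sets cannot be compared, the sums do not establish identity. Sex labels matched Xist and Eif2s3y on all 20 arrays. In whole kidney, fewer cells of a type and less RNA per cell cannot be told apart.

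At either duration, none of the 34 probe sets passed the test for diet in normal mice, diet in Hyp mice, genotype on control diet or genotype on low phosphate diet. Few probe sets of any kind did: at 3 days the shares of the 8695 that passed were 0%, 0.023%, 0.0115% and 0.0575% in that order, and at 5 days they were 0.023%, 0.0575%, 0.023% and 0.104%. With no adjustment, p was under 0.05 for 1, 0, 1 and 1 of the 34 probe sets at 3 days, against 3.14%, 2.71%, 2.5% and 3.09% of all. At 5 days the numbers were 1, 0, 5 and 5 of 34, against 7.28%, 4.91%, 10% and 11.4%. The genotype by diet interaction also passed for 0 of 34, with 0% of all probe sets at 3 days and 0.0115% at 5 days, and unadjusted p was under 0.05 for 1 of 34 at each, against 1.68% and 3.89%. The 95% confidence interval reached, at the median, 0.50 to each side for fatty acid oxidation and 0.39 for the citric acid cycle at 3 days, and 0.41 and 0.32 at 5 days. Differences smaller than these were therefore not resolved for a typical member.

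**Figure D1:**
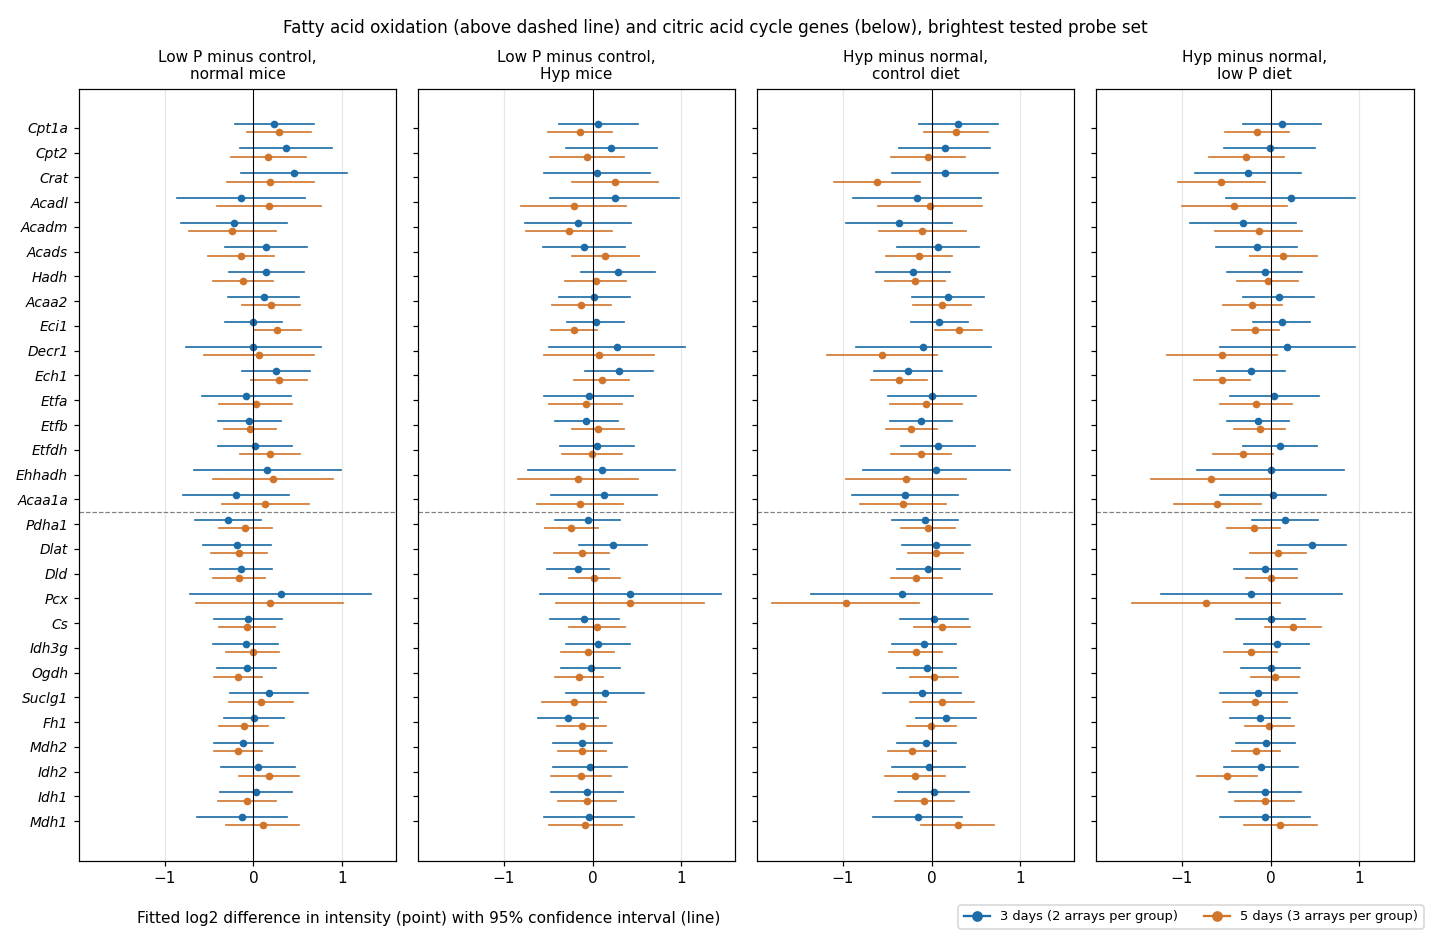
Fitted log2 difference (points) and 95% confidence interval (lines) for the brightest tested probe set of each of 29 genes, at 3 days (blue, 2 arrays per group) and 5 days (orange, 3 arrays per group), for the 4 comparisons of diet or genotype. Most intervals include 0, and at 5 days on low phosphate diet most fatty acid oxidation genes lie left of 0.

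The carnitine shuttle genes are led by Cpt1a, carnitine palmitoyltransferase 1 of the liver and kidney type, which controls entry of long chains into mitochondria. In normal mice on control diet its intensity was 4552 (male) and 5183 (female) at 3 days, and 6185, 5785 and 6377 at 5 days on arrays 01, 05 and 19. On low phosphate diet normal mice had 5930 and 5542 at 3 days, and 7513, 10147 and 5522 at 5 days on arrays 02, 06 and 20. Array 06 is the highest of all 20, and the diets overlap in normal mice only at 5 days. Hyp mice on control diet had 5417 and 6623 at 3 days, and 7275, 7636 and 7338 at 5 days, so that at 5 days all 3 lay above all 3 normal arrays on that diet. Hyp mice on low phosphate diet had 6447 and 6106 at 3 days and 6659, 6948 and 6535 at 5 days, a narrow range.

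The genotype difference of Cpt1a on control diet was 0.30 ± 0.21 (SE) at 3 days and 0.28 ± 0.17 (SE) at 5 days (limma adjusted p = 1 and 0.58). Over both durations it was 0.29 ± 0.12 (SE; 95% interval 0.03 to 0.55; limma adjusted p = 0.55), with the same sign in 5 of 5 pairs of arrays that share diet, sex and duration. On control diet 1 of 34 member probe sets, Cpt1a, was higher in Hyp in all 5 pairs, against 5.21% of all, and 4 (Dld, Ech1, Etfb and Pcx) were lower in all 5, against 4.67%. The diet difference of Cpt1a in normal mice was 0.27 ± 0.12 (SE) over both durations and -0.06 ± 0.12 (SE) in Hyp mice, and neither passed (limma adjusted p = 0.56 and 0.998). At 5 days the diet difference in normal mice, 0.29 ± 0.17 (SE), was the largest positive one among the members and ran from 0.036 to 0.54 over the other settings tried. The interaction over both durations was -0.33 ± 0.17 (SE; limma adjusted p = 1).

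The 250 bases before the start of Cpt1a are shown because it was the member whose probe set was higher in Hyp in all 5 control diet pairs. They lie at chr19:3323051-3323300 on the plus strand (RefSeq, GRCm38.p6), and capitals mark 2 copies of the GC box GGGCGG, read here on the other strand.
Cpt1a: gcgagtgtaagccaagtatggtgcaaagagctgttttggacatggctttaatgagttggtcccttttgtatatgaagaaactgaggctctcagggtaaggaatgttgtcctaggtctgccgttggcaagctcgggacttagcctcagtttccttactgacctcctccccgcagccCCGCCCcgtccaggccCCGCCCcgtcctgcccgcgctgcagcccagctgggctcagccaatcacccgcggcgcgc

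The other shuttle genes were Cpt2, the inner membrane partner of Cpt1a, and Crat, carnitine acetyltransferase, which moves short acyl groups. Cpt2 ran from 2796 to 5309 over the 20 arrays, and its diet difference in normal mice was 0.37 ± 0.24 (SE) at 3 days and 0.17 ± 0.20 (SE) at 5 days. By the brightest probe set of each gene, the measure used for largest differences throughout, Crat had the largest positive diet difference in normal mice at 3 days, 0.45 ± 0.28 (SE; limma adjusted p = 0.999). Its values there were 864 and 710 on control diet and 1193 and 990.2 on low phosphate diet, without overlap. At 5 days the Hyp minus normal difference of Crat was -0.62 ± 0.23 (SE) on control diet and -0.56 ± 0.23 (SE) on low phosphate diet (limma adjusted p = 0.44 and 0.39). The normal arrays there had 718, 407 and 995 on control diet against 704, 271 and 384 in Hyp. The dimmer Crat probe set gave -0.31 ± 0.58 (SE) for diet in normal mice at 3 days, the opposite sign with a wide error.

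Among the acyl-CoA dehydrogenases, which begin each turn of the spiral, Acadm acts on medium chains. In normal mice its intensity was 12816 (male) and 12307 (female) on control diet and 12029 and 9711 on low phosphate diet at 3 days. At 5 days normal mice had 11885, 13585 and 15180 on control diet and 11017, 11605 and 11726 on low phosphate diet, so that at each duration the low phosphate arrays were all below the control arrays of normal mice. In Hyp mice the values were 11682 and 8094 on control and 9486 and 7967 on low phosphate diet at 3 days. At 5 days they were 8324, 15188 and 15587 on control and 9740, 8575 and 13581 on low phosphate diet, which overlap widely.

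The diet difference of Acadm in normal mice was -0.22 ± 0.28 (SE) at 3 days and -0.24 ± 0.23 (SE) at 5 days. Over both durations it was -0.23 ± 0.16 (SE; 95% interval -0.57 to 0.12; limma adjusted p = 0.78), negative in 5 of 5 matched pairs. Of 34 member probe sets, 3 (Acadm, Dld and Mdh2) were lower on low phosphate diet in all 5 pairs of normal mice and 2 (Acaa2 and Idh2) higher, against 7% and 7.13% of all. In Hyp mice the diet difference of Acadm at 5 days was -0.26 ± 0.23 (SE; limma adjusted p = 0.99) and became 0.014 without arrays 05 to 08. It was the largest negative diet difference of any member in Hyp mice at 5 days, as -0.24 was in normal mice. By genotype, among the brightest probe set of each gene, Acadm had the largest negative difference at 3 days on each diet, -0.37 ± 0.28 (SE) on control and -0.31 ± 0.28 (SE) on low phosphate diet (limma adjusted p = 1 for both).

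Among the 28 member genes with an upstream window, only that of Acadm held AAGGTCA. This single site, read by estrogen-related receptors and similar nuclear receptors, was in 2.86% of member windows against 4.08% of all. The Acadm window is chr3:153944644-153944893 on the minus strand (RefSeq, GRCm38.p6), and capitals mark the match on the other strand, 249 bases before the start.
Acadm: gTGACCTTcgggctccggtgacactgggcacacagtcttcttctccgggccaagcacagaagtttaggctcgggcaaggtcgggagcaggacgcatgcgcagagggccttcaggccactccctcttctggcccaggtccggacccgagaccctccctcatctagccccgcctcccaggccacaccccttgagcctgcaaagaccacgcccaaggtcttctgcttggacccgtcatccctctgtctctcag

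Acadl, the long chain dehydrogenase, ran from 713 to 1780, and its 5-day genotype difference was -0.017 ± 0.27 (SE) on control and -0.41 ± 0.27 (SE) on low phosphate diet (limma adjusted p = 0.99 and 0.58). Array 19 gave the highest Acadl value and array 08 the lowest. Of the later steps, Hadh, the hydroxyacyl-CoA dehydrogenase, ran from 3159 to 5313 and Acaa2, the mitochondrial thiolase, from 8642 to 13752. The Acaa2 diet difference in normal mice had a positive sign in all 5 pairs and did not pass.

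**Figure D2:**
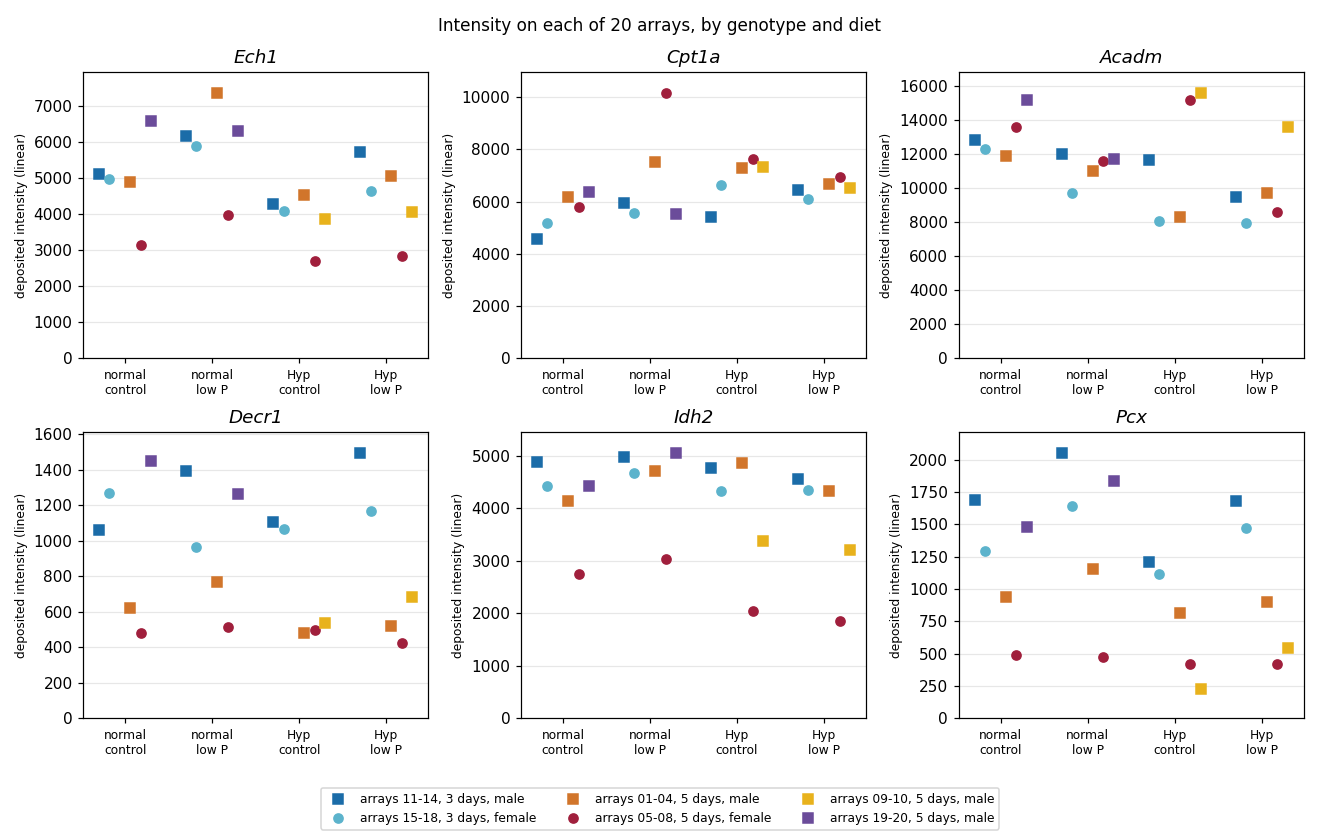
Deposited intensity on each of the 20 arrays for 6 genes, by genotype and diet, with colours for the array set, squares for male and circles for female pools. Ech1 on arrays 05 to 08 lies below the other arrays of each group, and Decr1 and Pcx on arrays 19 and 20 lie among the 3-day arrays and above the other 5-day arrays.

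Ech1, which encodes the isomerase that moves paired double bonds into place during oxidation of unsaturated chains, was lower in Hyp kidneys. In normal mice on control diet its intensity was 5128.5 (male) and 4967 (female) at 3 days, and 4906, 3148 and 6590 on arrays 01, 05 and 19 at 5 days. Hyp mice on the same diet had 4283 and 4078 at 3 days, and 4523, 2705 and 3869 on arrays 03, 07 and 09 at 5 days. The genotypes overlap at 5 days because the female arrays lie far below the male ones in each genotype, but at 3 days they do not. On low phosphate diet normal mice had 6169 and 5895 at 3 days and 7364, 3980 and 6322 on arrays 02, 06 and 20 at 5 days. Hyp mice on that diet had 5735 and 4633 at 3 days and 5069.5, 2842 and 4064 on arrays 04, 08 and 10 at 5 days. Each Hyp array was thus below the normal array paired with it by diet, sex and duration.

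Averaged over diets and over both durations, the genotype difference of Ech1 was -0.37 ± 0.08 (SE; 95% interval -0.54 to -0.21), 1.30-fold lower in Hyp (limma adjusted p = 0.023). The sign was negative in 10 of 10 matched pairs, 5 on each diet. This was the only member probe set of 34 to pass, in a comparison where 1.28% of all probe sets did, and unadjusted p was under 0.05 for 8 of 34 against 15% of all. The averaged comparisons were added after the first fits had been seen. By duration the average was -0.25 ± 0.13 (SE; limma adjusted p = 1) at 3 days and -0.46 ± 0.10 (SE; limma adjusted p = 0.067) at 5 days, where 0 of 34 passed beside 0.104% and 0.276% of all, and unadjusted p was under 0.05 for 0 and 10 of 34 (3.48% and 17.6% of all).

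The call did not hold under every setting. The limma adjusted p was 0.054 after quantile normalization, 0.48 with a term for days but none for sex, and 0.094 without arrays 05 to 08. It was 0.055 or 0.052 without array 02 or 13. With the array set as a fixed block the difference was -0.29 (limma adjusted p = 0.069), and without arrays 09, 10, 19 and 20 it was also -0.29 (limma adjusted p = 0.065). In the pair of arrays 09 and 19 the difference on control diet was -0.76, while the other 4 control diet pairs gave -0.12 to -0.28. On low phosphate diet the 5 pairs ran from -0.10 to -0.63.

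Marker lists moved with it. In the same averaged comparison 19 of 23 probe sets of proximal tubule markers were negative (median -0.13, 2 called lower). So were 15 of 19 of mitochondrial abundance genes (median -0.079, 0 called). Of all probe sets 44.8% were negative. The summed proximal tubule markers ran from 93368 to 118083 in Hyp and from 103597 to 128046 in normal mice. Single probe sets in that sum had wide ranges. Over all arrays the brighter Dnase1 set ran from 475.5 to 9585.1 and Slc34a1 from 8769.5 to 17165.9. Whether Hyp kidneys held less proximal tubule tissue was not tested. Summed markers of immune cells (17 genes) ran from 7497 to 10729 in Hyp and from 7239 to 7854 in normal mice. Of the immune probe sets 11 of 15 were positive, against 55.2% of all, with a median of 0.21 and 0 called. The part of these lists in the Ech1 difference was not tested.

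**Figure D3:**
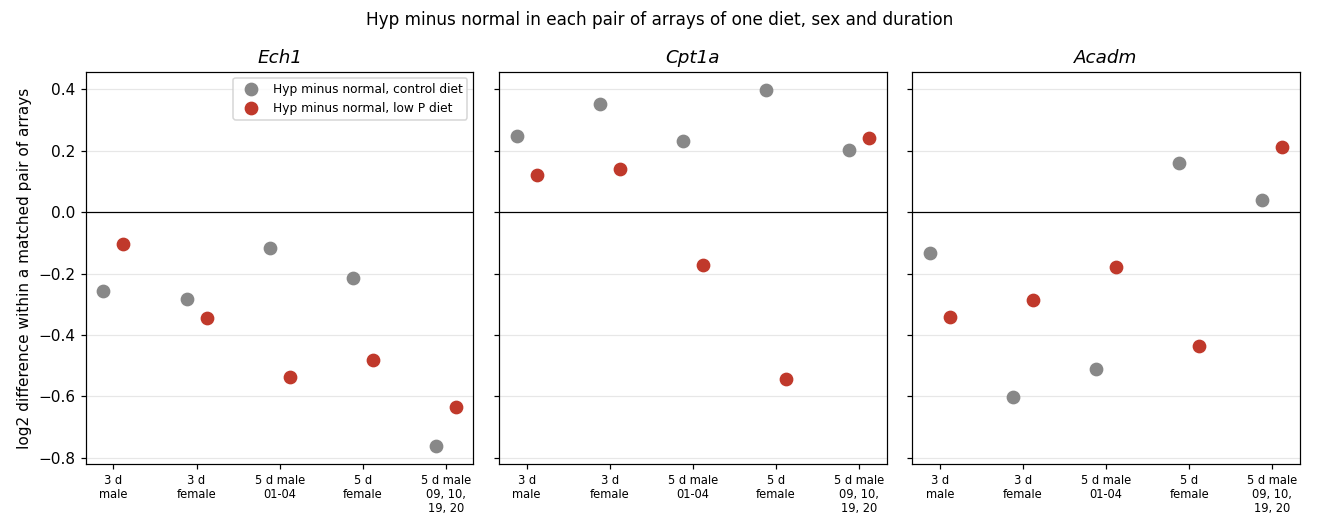
Hyp minus normal log2 difference within each of 5 pairs of arrays that share sex, duration and diet, on control (grey) and low phosphate diet (red), for Ech1, Cpt1a and Acadm. All 10 Ech1 points lie below 0, and the 5 grey Cpt1a points lie above 0.

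By diet, Ech1 was higher on low phosphate in 5 of 5 Hyp pairs, which 1 of 34 member probe sets and 4.04% of all showed (0 of 34 were lower in all 5, against 3.76%), and in 4 of 5 normal pairs, arrays 19 and 20 being the exception at -0.06. The diet difference averaged over genotypes and durations was 0.23 ± 0.08 (SE; limma adjusted p = 0.295), and 0 of 34 passed beside 0.472% of all, with unadjusted p under 0.05 for 2 of 34 against 9.75%. The 250 bases before the start of Ech1, the only member to pass for genotype, lie at chr7:28825088-28825337 on the plus strand (RefSeq, GRCm38.p6), with 2 GC boxes in capitals, the first as GGGCGG and the second on the other strand.
Ech1: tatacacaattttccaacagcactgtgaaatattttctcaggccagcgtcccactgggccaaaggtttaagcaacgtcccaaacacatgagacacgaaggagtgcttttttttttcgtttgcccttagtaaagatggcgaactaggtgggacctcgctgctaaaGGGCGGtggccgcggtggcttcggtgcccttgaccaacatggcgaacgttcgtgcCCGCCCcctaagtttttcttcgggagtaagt

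The other auxiliary enzymes were Eci1, the enoyl-CoA isomerase, and Decr1, the dienoyl-CoA reductase. Eci1 had 1380, 1325 and 1376 in normal mice on control diet at 5 days and 1526, 1893 and 1548.5 on low phosphate diet, so the diets did not overlap. In Hyp mice at 5 days the order was turned, with 1569, 1877 and 1631 on control and 1554, 1508 and 1317.5 on low phosphate diet. The interaction at 5 days was -0.48 ± 0.17 (SE) with an unadjusted p of 0.015 and a limma adjusted p of 0.997, and it was 0.037 at 3 days. The 5-day genotype difference on control diet, 0.30 ± 0.12 (SE; limma adjusted p = 0.45), was the largest positive one among the members.

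Decr1, described here, like Acaa1a, after its values were seen, differed by array set. It ran from 962 to 1495 on the 8 arrays of 3 days, from 1263 to 1451 on arrays 19 and 20, and from 422 to 770 on the other 10 arrays of 5 days. Its 5-day genotype difference was -0.56 ± 0.29 (SE) on control and -0.55 ± 0.29 (SE) on low phosphate diet (limma adjusted p = 0.53 and 0.48), and at 3 days it was -0.092 ± 0.355 and 0.18 ± 0.355 (SE). Since arrays 19 and 20 are both of normal mice, set and genotype are partly mixed in the 5-day values.

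Ehhadh and Acaa1a, the bifunctional enzyme and the thiolase of peroxisomal oxidation, had the same pattern. Acaa1a ran from 2039 to 2778 at 3 days, from 2607 to 3075 on arrays 19 and 20 and from 1217 to 1835 on the other 5-day arrays. Ehhadh ran from 1142 to 1636, from 1361 to 1547 and from 486 to 1123 in the same order. On low phosphate diet at 5 days the genotype difference was -0.67 ± 0.32 (SE) for Ehhadh and -0.60 ± 0.23 (SE) for Acaa1a (limma adjusted p = 0.44 and 0.36), and at 3 days 0.00051 ± 0.39 and 0.029 ± 0.28 (SE). Arrays 19 and 20 lay above all other 5-day arrays for 11 of 34 member probe sets, against 8.33% of all, and below them for 1, Cs, against 10.4%.

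Electron transfer to the respiratory chain runs through the flavoprotein subunits Etfa and Etfb and their dehydrogenase Etfdh. Etfa ran from 2545 to 4098, Etfdh from 932 to 1619 and the brighter Etfb probe set from 2608 to 5214. Genotype differences of the 4 probe sets of these genes, the dimmer Etfb set included, at either duration lay between -0.31 and 0.22, and diet differences between -0.14 and 0.18, and none passed. Etfdh on low phosphate diet at 5 days gave the lowest. The brighter Etfb set was lower in Hyp in all 5 control diet pairs, as were Ech1, Dld and Pcx.

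Pyruvate entry was represented by Pdha1 and Dlat, subunits of pyruvate dehydrogenase, Dld, which that complex shares with oxoglutarate dehydrogenase, and Pcx, pyruvate carboxylase, which supplies oxaloacetate. Pdha1 had 5206 and 5302 on control and 4397 and 4194 on low phosphate diet in normal mice at 3 days, without overlap, and the difference of -0.29 ± 0.17 (SE; limma adjusted p = 0.999) was the largest negative one there. At 5 days normal mice had 6316, 5624 and 5865 on control and 5737, 5843 and 5152 on low phosphate diet, which overlap, with a difference of -0.09 ± 0.14 (SE). The brighter Dlat probe set had the largest positive genotype difference on low phosphate diet at 3 days. It had 451 and 367 in normal and 604 and 554 in Hyp mice, a difference of 0.47 ± 0.18 (SE; limma adjusted p = 1), and 0.085 ± 0.15 (SE) at 5 days.

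Pcx gave the largest negative genotype differences at 5 days, and its values depended on the array set. On control diet normal mice had 935, 488 and 1479 and Hyp mice 812, 420 and 227 (arrays 01, 05, 19 and 03, 07, 09). The difference was -0.97 ± 0.39 (SE; limma adjusted p = 0.45), and on low phosphate diet -0.73 ± 0.39 (SE; limma adjusted p = 0.49). By the brighter Pcx set, the Hyp arrays were below their normal partners in all 10 pairs. By the dimmer set they were below in 4 of 5 control diet pairs and 3 of 5 low phosphate pairs. In all 5 pairs on low phosphate diet Pcx, Ech1, Mdh2 and Idh2 were lower in Hyp (4 of 34, against 5.06% of all), and 0 of 34 were higher in all 5, against 6.42%. At 3 days Pcx differed by -0.34 ± 0.48 on control and -0.22 ± 0.48 (SE) on low phosphate diet. The dimmer Pcx set gave 0.12 ± 0.28 (SE) for that last comparison, with the opposite sign. For diet in normal mice at 3 days the sets also disagreed, with 0.31 ± 0.48 and -0.64 ± 0.28 (SE).

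The diet difference of Pcx in Hyp mice was 0.43 ± 0.48 (SE) at 3 days and 0.42 ± 0.39 (SE) at 5 days (limma adjusted p = 1 and 0.99), the largest positive one among the members at each duration. The 3-day values were 1212 and 1116 on control and 1682 and 1474.5 on low phosphate diet, without overlap. At 5 days array 09 carried the difference, which was -0.18 without it. The dimmer Pcx set did not share the positive 5-day difference, with -0.66, -0.07 and 0.08 in the matched pairs of Hyp mice. The array also holds 4 control probe sets along the Pcx transcript. Their 3′ to 5′ ratio, a sign of RNA quality and labelling, ran from 2.36 to 15.4 over the 20 arrays. The 5′ control set gave 135 to 521 on arrays 05 to 08, 240 and 359 on arrays 10 and 09, and 282 to 1440.5 on the rest. Its part in the Pcx differences was not tested.

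In the cycle proper, Cs, citrate synthase, condenses acetyl-CoA with oxaloacetate. Its 12 values at 5 days ran from 2476 to 3701 and its 8 values at 3 days from 2387 to 2784. The 5-day genotype difference on low phosphate diet, 0.25 ± 0.15 (SE; limma adjusted p = 0.53), was the largest positive one among the members there, with 3450, 2860 and 2476 in normal and 3430, 3233 and 3701 in Hyp mice, which overlap. Fh1, fumarase, had the largest negative diet difference in Hyp mice at 3 days, -0.28 ± 0.16 (SE; limma adjusted p = 1). Its values were 3349 and 3156 on control and 2557 and 2789 on low phosphate diet, without overlap, and the 5-day difference was -0.12 ± 0.13 (SE).

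Idh2, the NADP-linked mitochondrial isocitrate dehydrogenase, had at 5 days 4718, 3032 and 5055 in normal and 4322, 1854 and 3208 in Hyp mice on low phosphate diet. The genotype difference was -0.49 ± 0.16 (SE; 95% interval -0.83 to -0.15; limma adjusted p = 0.31), and at 3 days -0.11 ± 0.19 (SE). On control diet at 5 days it was -0.19 ± 0.16 (SE). The 5-day pairs on low phosphate diet were uneven. The difference was -0.13 in the male pair from a single array set and -0.70 in the female pair. It was -0.65 in the male pair whose arrays come from different sets. Between sets of Hyp males at 5 days, arrays 09 and 10 minus arrays 03 and 04 gave -0.47, and the matching set difference in normal males was 0.10. Set and genotype are thus partly mixed in the 5-day values of Idh2. Mdh2, the mitochondrial malate dehydrogenase, ran from 5901 to 9368 and was lower on low phosphate diet in all 5 normal pairs, without passing. Suclg1, Ogdh and Idh3g, of the later and oxidative steps, and the cytosolic Idh1 and Mdh1 had diet and genotype differences whose intervals included 0 in all 8 comparisons at 1 duration.

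Read as lists, fatty acid oxidation and the citric acid cycle differed little from all probe sets at 3 days. Of 19 fatty acid oxidation probe sets, 11 were positive for diet in normal mice (median 0.020) and 13 in Hyp mice (median 0.054), and 11 for genotype on each diet (medians 0.054 and 0.029). Of all probe sets 50.7%, 50.9%, 51.6% and 50.8% were positive in that order. The median over all probe sets lay between 0.0039 and 0.0072 in these comparisons. Of 15 citric acid cycle probe sets 10 were negative for diet in each genotype (medians -0.089 and -0.037), against 49.3% and 49.1% of all.

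At 5 days most fatty acid oxidation probe sets were lower in Hyp. On low phosphate diet 17 of 19 were negative with a median of -0.27, while 45.5% of all 8695 were negative with a median of 0.033. On control diet 15 of 19 were negative (median -0.14), against 45.8% of all (median 0.027). The citric acid cycle had 9 of 15 negative on each diet (medians -0.070 and -0.044). None of these probe sets passed on its own. The difference between 5 and 3 days was itself tested for each comparison of diet or genotype and passed for 0 of 34, beside 0% of all, with unadjusted p under 0.05 for 1, 0, 0 and 0 of 34 against 2.53%, 2.69%, 2.94% and 3.88%.

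The 5-day values also differed by array set. The mean log2 deviation of the 19 fatty acid oxidation probe sets from their 20-array means was 0.32 on array 19 and 0.22 on array 20. It was -0.13 and -0.10 on arrays 09 and 10, -0.18 to 0.034 on arrays 01 to 04, -0.35 to -0.069 on arrays 05 to 08 and 0.041 to 0.29 on the 3-day arrays. Arrays 19 and 20 minus arrays 01 and 02, the same groups, sex and duration, gave 15 of 19 positive with a median of 0.22 (all probe sets, median -0.041), and arrays 09 and 10 minus 03 and 04 gave 9 of 19 with a median of -0.0073. In each of these limma comparisons 0 of 34 members and 0% of all probe sets passed. Without arrays 09, 10, 19 and 20 the median genotype difference was -0.25 on low phosphate and -0.15 on control diet. Without arrays 05 to 08 it was -0.25 and -0.24.

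**Figure D4:**
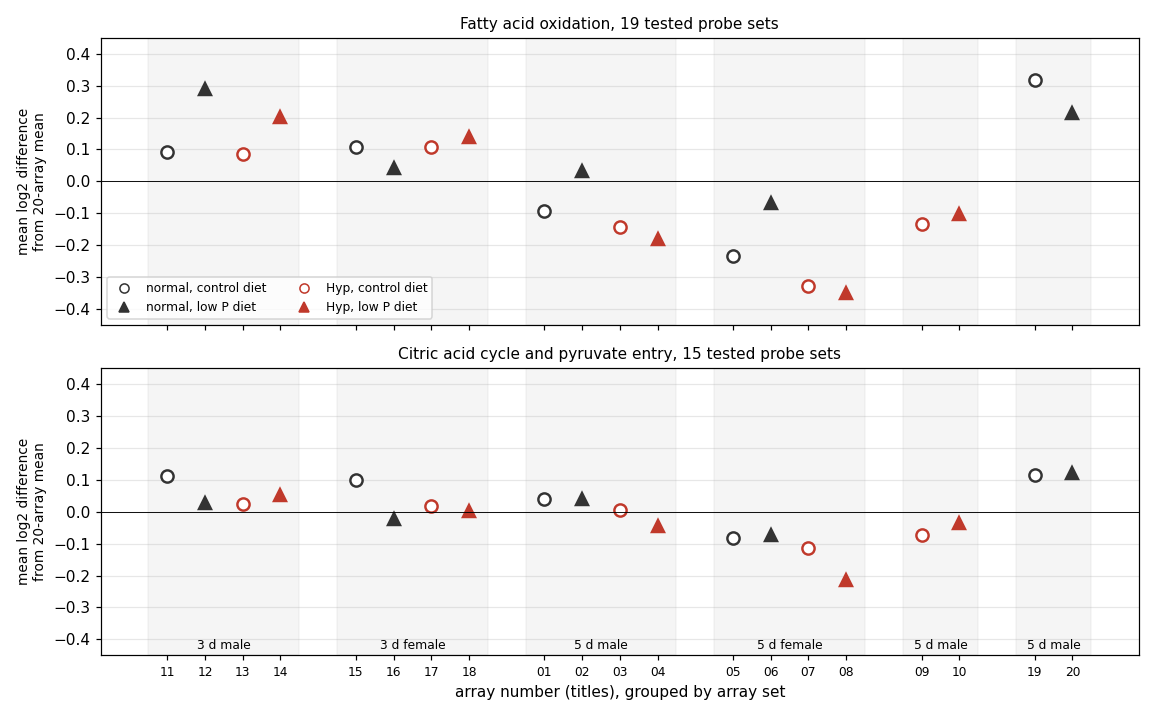
Mean log2 deviation from the 20-array mean on each array, for 19 fatty acid oxidation probe sets (top) and 15 citric acid cycle probe sets (bottom), ordered by array set, with normal mice in black, Hyp mice in red, circles for control and triangles for low phosphate diet. Arrays 19 and 20 lie at 0.32 and 0.22 in the top panel, above the other 5-day arrays, and the bottom panel runs from -0.21 to 0.12.

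Other lists were also uneven in sign. On low phosphate diet at 5 days 14 of 17 probe sets of PPAR alpha targets were negative by genotype (median -0.25). So were 15 of 23 of proximal tubule markers (median -0.16, 1 called lower) and 12 of 19 of mitochondrial abundance genes (median -0.064), against 45.5% of all. Immune markers were positive in 14 of 15 (median 0.32), against 54.5% of all. Of 27 probe sets of other fatty acid oxidation genes 17 were negative (median -0.18), and of 23 of other citric acid cycle genes 8 (median 0.062). None of the PPAR alpha, immune or other pathway probe sets passed there, and their part in the member pattern was not tested.

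Over both durations, fits with 13 residual degrees of freedom passed 0 of 34 for diet in normal mice, diet in Hyp mice, genotype on control diet, genotype on low phosphate diet and their interaction, beside 0.184%, 0.15%, 0.253%, 0.357% and 0.046% of all. Unadjusted p was under 0.05 for 2, 0, 5, 3 and 0 of 34 in limma, against 8.56%, 4.59%, 8.55%, 9.47% and 3.23%. By genotype on low phosphate diet 17 of 19 fatty acid oxidation probe sets were negative with a median of -0.15, against 45.8% of all with a median of 0.020. On control diet 14 of 19 were negative, also with a median of -0.15, against 46.5% of all with a median of 0.018. Averaged over genotypes, diet passed 0 of 34 at 3 days and at 5 days (0.046% and 0.104% of all), with unadjusted p under 0.05 for 1 and 0 (4.35% and 8.17%).

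The most member probe sets passed between female and male arrays at 5 days, where all 4 female arrays are arrays 05 to 08, so sex and array set cannot be told apart. In limma 13 of 34 probe sets passed, 3 higher and 10 lower in females, beside 33.7% of all (17.1% higher and 16.7% lower). Unadjusted p was under 0.05 for 17 of 34, against 44.3% of all. At 3 days 0 of 34 passed for sex, beside 0.173% of all, with unadjusted p under 0.05 for 1 of 34 against 6%. The change of the sex difference from 3 to 5 days passed for 6 of 34, beside 10.1% of all, with unadjusted p under 0.05 for 10 of 34 against 27.4%. With the array set as a random block, 8 of 34 passed for sex at 5 days and 0 for its change from 3 to 5 days.

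Idh2 and the flavoprotein subunit Etfb were among those lower. Idh2 had 2746, 3032, 2049 and 1854 on arrays 05 to 08 and 3208 to 5055 on the other 16, without overlap, a female minus male difference at 5 days of -0.82 ± 0.12 (SE; limma adjusted p = 0.00029). The brighter Etfb set had 2897, 2608, 2792 and 2926 against 3818 to 5214 (-0.65 ± 0.10 SE), and the dimmer one 70.0, 74.6, 87.2 and 86.8 against 178 to 292 (-1.16 ± 0.12 SE). Ech1 differed by -0.73 ± 0.11, Crat by -0.89 ± 0.17, Idh3g by -0.58 ± 0.10, Ogdh by -0.34 ± 0.095 and Pcx by -0.88 ± 0.29 and -0.54 ± 0.17 (SE). Both Dlat sets were higher, by 0.88 ± 0.22 and 0.33 ± 0.11 (SE). Arrays 05 to 08 were below all other arrays for 5 of 34 probe sets, against 4.63% of all, and above them for 1, against 4.98%.

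The probe sets of Acads, the short chain acyl-CoA dehydrogenase, went opposite ways on arrays 05 to 08. The brighter set had 3565, 2452.5, 1994 and 2730 there and 1029 to 1300 on the other 16 arrays, a difference at 5 days of 1.15 ± 0.13 (SE). The dimmer set had 422, 374, 249 and 421 there and 442 to 1035 elsewhere, a difference of -0.87 ± 0.18 (SE). The level of Acads on these arrays therefore depends on the probe set read. On the same arrays the sums of 10 muscle genes (1147 to 2275, against 592 to 1089 elsewhere) and of 12 fibroblast and matrix genes (16612 to 19755, against 10153 to 14684.5) did not overlap with the other arrays. That of 6 collecting duct genes was 8350.5 to 10872 there and 9842 to 13836 elsewhere. Single probe sets in the muscle and matrix sums had wide ranges. Over all arrays the brighter Myh4 set ran from 117.9 to 1287.6. The brighter Col1a2 set ran from 1173.1 to 8230.9 and the dimmer one from 820.4 to 2744.1. Whether arrays 05 to 08 held more muscle or matrix tissue was not tested. The part of these lists in the member differences was not tested.

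**Figure D5:**
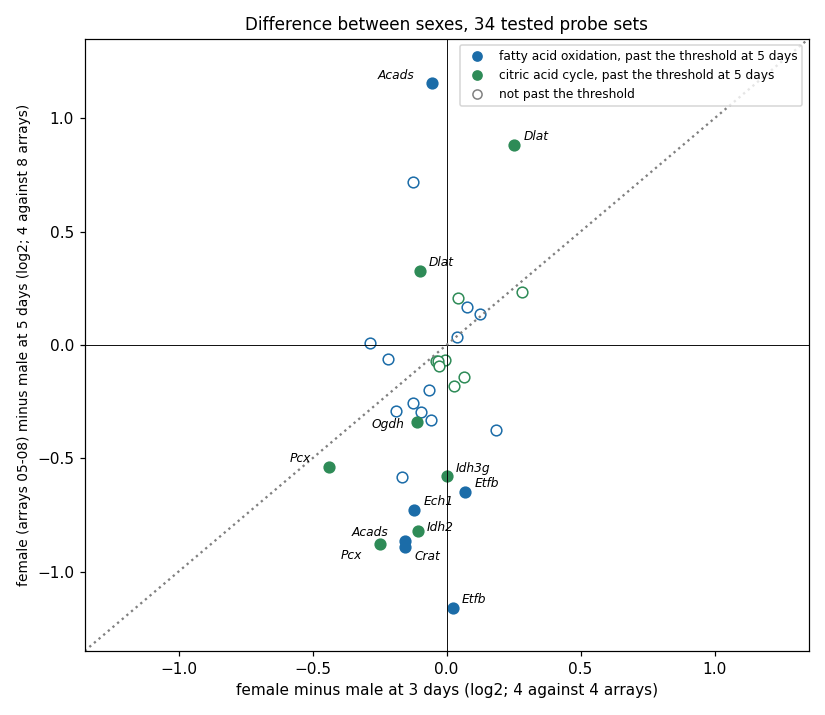
Female minus male log2 difference at 3 days (x axis, 4 against 4 arrays) and at 5 days (y axis, 4 against 8 arrays) for the 34 tested probe sets, blue for fatty acid oxidation and green for the citric acid cycle, filled where the 5-day difference passed. The 13 filled points spread along the y axis from -1.16 to 1.15 while the x axis values stay between -0.44 and 0.28.

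Beyond the members, lists of other genes of these pathways were examined: 25 tested genes of fatty acid oxidation, 20 of the citric acid cycle and 13 targets of PPAR alpha. In the 8 diet and genotype comparisons at 1 duration none of their probe sets passed. Over both durations 4 genes passed in some comparison. Of all probe sets, 0.184% passed for diet in normal mice and 0.357% for genotype on low phosphate diet. The shares were 0.472% for diet averaged over genotypes and 1.28% for genotype averaged over diets. Both averaged comparisons were added after the first fits had been seen. Acot1, an acyl-CoA thioesterase, had 847 to 1230.5 on control and 1833 to 2109 on low phosphate diet in normal mice, a difference of 0.99 ± 0.15 (SE; limma adjusted p = 0.0086). Cyp4a14, a fatty acid omega hydroxylase, was higher on low phosphate diet by 0.84 ± 0.18 (SE) averaged over genotypes (limma adjusted p = 0.048). Fabp3, a fatty acid binding protein, was lower in Hyp, at -0.79 ± 0.15 (SE), and Acsl4, an acyl-CoA synthetase that prefers arachidonate, was higher by 0.35 ± 0.07 (SE), both averaged over diets (limma adjusted p = 0.015 for both). Fabp3 had 210.1 to 782 on Hyp and 311 to 1164 on normal arrays, with the lowest values on arrays 05 to 10. Markers listed for fat cells summed to 11094 to 16778 on control and 8608 to 10595 on low phosphate diet without overlap. That list includes Pck1, a gluconeogenic enzyme that the proximal tubule also makes, at 4694 to 8763 and 1938.5 to 4908.5, while the fat cell hormone Adipoq ran from 186 to 1319 and from 253 to 1327.

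Promoter windows of 250 bases before the start, from RefSeq on GRCm38.p6, were found for 28 of the 31 member genes, leaving out Acaa2, Crat and Decr1. Both strands were searched. These genes had 35 windows, since some have several starts. The GC box GGGCGG was in 20 of the 35 (57.1%), belonging to 18 genes, and in 32.7% of all 32851 windows. AAGGTCA was in 1 of 35 (2.86%), that of Acadm, and in 4.08% of all windows. The direct repeat of AGGTCA with 1 base of any kind between the copies, bound by PPAR alpha with its partner, was in 0 of 35 and in 0.0335% of all, so these letters were not found within this short window. These matches describe the sequences and show no binding.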

How the data were processed

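Kidney RNA from pools of 3 mice was hybridised to 20 arrays. The deposited values are linear intensities that the authors scaled to a common level (2% trimmed means of 500.254 to 500.309), made with software not given in the sources used here. Of 12488 probe sets, 66 controls were set aside. The values were analysed as log2(intensity + 38), where 38 is their 20th percentile, and probe sets with a mean under the 30th percentile (79.4) were dropped, leaving 8695. limma 3.58.1 in R 4.3.3 fitted 8 cells of group and days with sex within days (10 residual degrees of freedom), or 4 groups with sex by days (13 for both durations), over 28 comparisons, of which 7 were added after the first fits. Benjamini-Hochberg adjustment ran within each comparison. The code was tested on simulated data. Probe sets take their gene from the platform annotation (10833 have 1 gene, 396 several, 1193 none). Named genes were those past the threshold, those with the largest difference in either direction in each diet or genotype comparison at 1 duration, and Cpt1a, Acadm, Acadl, Ehhadh, Cs, Idh2, Pcx and Pdha1. The members and lists were chosen with earlier results of these data known. Alternatives covered the offset, normalization, filter, variance model, sex term, array set as a block, array weights and arrays left out.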

Additional observations from a re-analysis of the deposited data

Results flagged for a closer look

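Of 116 groups of 5 arrays tested, 8 held an array far from the rest, where chance gives about 1 in 20, or 5.8. That number assumes 5 alike arrays, while each group mixes durations, sexes and array sets, so it is no strict benchmark. All 8 lay on arrays 05 to 08. The brighter probe set of Acads was highest on array 05 in normal mice on control diet (3564.9, next 1162.2), on array 06 in normal mice on low phosphate diet (2452.5), on array 07 in Hyp mice on control diet (1993.5) and on array 08 in Hyp mice on low phosphate diet (2730.3). In normal mice on low phosphate diet, array 06 was highest for Eci1 (1893.1) and lowest for Idh2 (3032.4) and Idh3g (2177.7). Etfb was lowest on array 08 in Hyp mice on low phosphate diet (2926.4).

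The female minus male difference changed between 3 and 5 days, by the limma test of that change, for 6 probe sets. The change was 1.21 for the brighter Acads set, -1.18 and -0.72 for the Etfb probe sets, -0.71 for Idh2, -0.61 for Ech1 and -0.58 for Idh3g. Females at 5 days are arrays 05 to 08 alone, so sex and array set cannot be told apart. With the array set as a random block 0 of these 6 passed. Calls over all probe sets for this change were 880, and ran from 0 to 1639 under the other settings.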

How the results depend on the processing

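No pairing by replicate number was possible because the title numbers are unique to each array and no replicate number is shared between groups. Arrays were matched by diet, sex and duration only to describe signs, and the array set was fitted as a block. For genotype averaged over diets and durations, the 1 member called (Ech1) became 0 after quantile normalization, with no sex term, with the array set as a fixed block, and without arrays 05 to 08 or arrays 09, 10, 19 and 20, and ran from 0 to 1 when single arrays were left out (0 without array 02 or 13). At 5 days alone, that count went from 0 to 1 with the filter at the median or with trend and robust variances, and from 0 to 1 when single arrays were left out (1 without array 01). For diet averaged over genotypes and durations it went from 0 to 1 with array weights. The 13 members called for sex at 5 days became 8 with the array set as a random block. The 6 called for its change from 3 to 5 days became 0 with that block, 10 without arrays 09, 10, 19 and 20, and 2 to 8 when single arrays were left out (2 or 3 without array 08 or any of arrays 11 to 18). In Hyp mice at 5 days the diet difference of Acadm turned to 0.014 without arrays 05 to 08, and that of Pcx ran from -0.18 (without array 09) to 0.79. Over all probe sets, the calls for genotype averaged over diets were 111 (35 to 187 under other settings) for both durations and 24 (3 to 96, or 11 to 210 leaving out single arrays) at 5 days. For sex at 5 days they were 2934 (893 to 3865, or 1937 to 3115 leaving out single arrays). For its change from 3 to 5 days they were 880 (0 to 1639, or 291 to 1191). The causes were not tested. Probe sets near background have only loose limits.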
